A study of Homo sapiens with 4 samples.

Results

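The miR-17-92 cluster is a group of 6 microRNA hairpins carried by 1 primary transcript, MIR17HG. Its members were taken as the names hsa-miR-17, hsa-miR-18a, hsa-miR-19a, hsa-miR-20a, hsa-miR-19b and hsa-miR-92a, without the star names, which stand for the other arm of each hairpin. They are 6 of the 1100 mature miRNA names with a deposited value, and all 6 were above 0 in all 4 libraries. Small RNA had been sequenced from a pair of human breast lines, in the cells and in the exosomes purified from their cultures. The MDA-MB-231 line comes from a triple-negative, mesenchymal-like breast carcinoma and was grown here with 10% fetal bovine serum. The MCF-10A line is of mammary epithelium, is not transformed, and was grown here with 5% horse serum, insulin, epidermal growth factor, hydrocortisone and cholera toxin. The labels name no engineered change and no drug treatment in either line. Each of the 4 groups held 1 library, so differences below have no replicate check and no p-values. The comparisons ask how the members differ between the lines, in exosomes and in cells, and between exosomes and cells of each line. Each line had its own medium, so line and medium cannot be told apart in comparisons between the lines.

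The cluster is a textbook target of the transcription factor MYC, which binds at the MIR17HG locus and raises its transcription, and it is widely known as an oncogenic miRNA cluster. Drosha and Dicer cut the hairpins from 1 transcript, so that they are transcribed in equal number, while mature levels also depend on processing, stability and release. A miRNA finds its targets mainly through its seed, bases 2 to 8 from the 5′ end. miR-17 and miR-20a repress cell cycle regulators such as p21, miR-18a represses connective tissue growth factor, and miR-92a represses the proapoptotic protein BIM. Exosomes are vesicles of endosomal origin that are released into the medium with RNA inside.

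The mature sequences below are from RefSeq on GRCh38.p14, where all 19 names looked up had an entry. They are shown because shared seeds sort the members into 4 groups and because near-identical names outside the cluster bear on how reads can be assigned. Capitals mark the seed.
hsa-miR-17: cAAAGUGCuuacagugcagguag
hsa-miR-20a: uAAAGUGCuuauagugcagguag
hsa-miR-18a: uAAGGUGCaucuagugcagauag
hsa-miR-19a: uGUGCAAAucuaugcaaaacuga
hsa-miR-19b: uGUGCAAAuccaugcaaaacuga
hsa-miR-92a: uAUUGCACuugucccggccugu
miR-17 and miR-20a share 1 seed, and with positions counted from 1 at the 5′ end they differ by C1U and C12U, miR-17 given first. miR-18a has a seed of its own that differs from that of miR-17 by A4G. miR-19a and miR-19b share another seed and differ at a single base outside it, U11C. The GC content ran from 34.8% in miR-19a to 54.5% in miR-92a.

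The hairpins lie in the order miR-17, miR-18a, miR-19a, miR-20a, miR-19b-1 and miR-92a-1 within 787 bases, at chr13:91350605-91351391 on the plus strand of GRCh38.p14. MIR17HG spans chr13:91347820-91354579 in GENCODE release 29 with 3 transcripts, and each hairpin is exonic in 2 of them and intronic in 1. miR-19b and miR-92a also have a second hairpin each on chromosome X, at chrX:134169671-134169766 and chrX:134169538-134169612, both on the minus strand. Their reads can therefore come from either chromosome. The hairpins of miR-17, miR-18a and miR-92a-1, the 3 that the results below turn on most, are printed with both mature arms in capitals.
MIR17: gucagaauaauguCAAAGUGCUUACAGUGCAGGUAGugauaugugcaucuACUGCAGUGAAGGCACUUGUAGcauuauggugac
MIR18A: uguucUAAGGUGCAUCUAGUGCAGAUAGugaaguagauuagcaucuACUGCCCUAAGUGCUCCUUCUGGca
MIR92A1: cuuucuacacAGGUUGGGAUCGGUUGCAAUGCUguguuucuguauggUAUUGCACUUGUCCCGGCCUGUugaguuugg
The member is the first arm in the hairpins of miR-17 and miR-18a and the second arm in that of miR-92a.

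Depth, as miRNA reads recovered from the deposited values, was 1532907 in exosomes of MDA-MB-231, 7346081 in cells of MDA-MB-231 and 1254641 in exosomes of MCF-10A, against 10937887 in the library labelled MCF-10A cell. The last library stands apart. Markers of other tissues, a list of 59 miRNAs of muscle, stroma, endothelium, blood, liver, nerve, gut and placenta among others, took 51.3% of its reads against 2.76% in exosomes of MDA-MB-231, 0.136% in cells of MDA-MB-231 and 0.156% in exosomes of MCF-10A. At least 10 reads per 10000000 were found for 59 of 59 listed names there, against 43, 15 and 27 in the same other libraries, and all 5 placental names on the list were at 0 everywhere else. The 5 epithelial markers summed to 433000 reads per 10000000 in exosomes of MCF-10A, to 77500 in the library labelled MCF-10A cell, and to only 1170 and 856 in exosomes and cells of MDA-MB-231. The markers of other tissues go against its label, and whether it holds RNA of MCF-10A cells, of other tissues or of both was not tested. Every comparison with that library is therefore given as one with the library labelled MCF-10A cell, and the results are also given over the other 3 libraries. In such bulk libraries, fewer cells of a type and less RNA per cell cannot be told apart. All intervals below are 95% intervals that cover counting error only, since PCR reads without molecular identifiers are not independent molecules.

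The 6 members together made up 1.00% of the miRNA reads in exosomes of MDA-MB-231 (Wilson interval 0.988 to 1.02%), 1.83% in cells of MDA-MB-231 (1.82 to 1.84%) and 1.42% in exosomes of MCF-10A (1.39 to 1.44%), against 0.575% in the library labelled MCF-10A cell (0.570 to 0.579%). These shares stand for 15386, 134320, 17750 and 62803 reads. The summed level was thus highest in cells of MDA-MB-231 and lowest in the library labelled MCF-10A cell, with both exosome libraries between them, and no neighbouring pair in that order overlapped by counting error.

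A level below is the deposited value of a name, log2 of its reads per 10000000 plus 1. In the order exosomes of MDA-MB-231, cells of MDA-MB-231, exosomes of MCF-10A and the library labelled MCF-10A cell, miR-17 stood at 14.60, 15.60, 15.16 and 13.10. miR-20a, its partner in seed, stood at 15.26, 16.28, 15.87 and 12.81. Both were highest in cells of MDA-MB-231 and lowest in the library labelled MCF-10A cell. miR-20a was the most abundant member in the first 3 libraries, where it ranked 32, 15 and 16 among all names above 0, and it ranked 105 in the fourth.

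miR-18a stood at 11.95, 14.46, 12.69 and 8.47 in the same order, from 606, 16555, 829 and 387 reads. It had the widest range of the 6 members, 5.99 on the log2 scale over 4 libraries and 2.51 without the library labelled MCF-10A cell. miR-19a, the least abundant member in the first 3 libraries, stood at 9.61, 11.33, 9.68 and 10.60, and its 120 and 103 reads in the exosome libraries were the fewest of any member. miR-19b stood at 10.66, 12.38, 11.25 and 14.50. It was the only member with its highest level in the library labelled MCF-10A cell, where 25343 reads made it the most abundant of the 6. miR-92a stood at 14.87, 14.50, 15.10 and 14. Its range of 1.10 was the narrowest, and it was the only member whose highest level was in an exosome library.

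**Figure D1:**
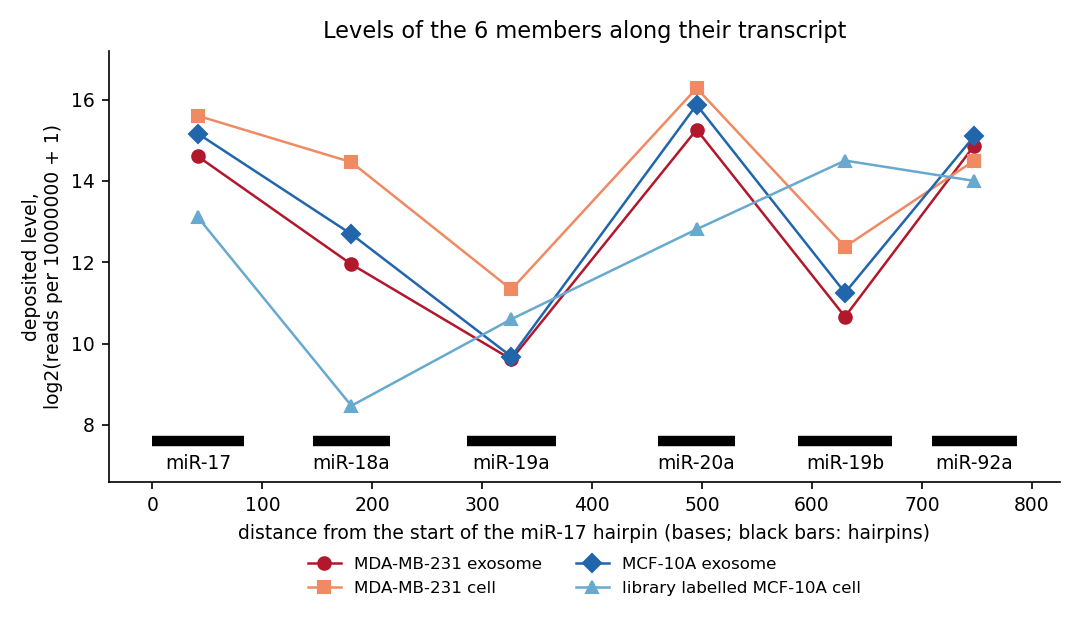
The y axis gives the deposited level of each member, as log2 of reads per 10000000 plus 1, and the x axis its distance in bases from the start of the miR-17 hairpin. Each line joins the members of 1 library, and the black bars are the hairpins. The lines of the first 3 libraries share their zigzag, with dips at miR-19a and miR-19b, while the library labelled MCF-10A cell dips at miR-18a, at 8.47, and peaks at miR-19b, at 14.50.

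Level did not follow the order of the hairpins on the transcript. In exosomes of MDA-MB-231 the order of the members was miR-20a, miR-92a, miR-17, miR-18a, miR-19b and miR-19a. Cells of MDA-MB-231 had miR-17 ahead of miR-92a, and there miR-18a and miR-92a were nearly level, at a ratio of 0.973 (0.952 to 0.994). Exosomes of MCF-10A also had miR-17 and miR-92a nearly level, at a ratio of 1.04 (1.00 to 1.09), an interval that reaches equality. In the library labelled MCF-10A cell the order was miR-19b, miR-92a, miR-17, miR-20a, miR-19a and miR-18a.

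As shares of the cluster's own reads, the pair with the miR-17 seed made up 63.8% in exosomes of MDA-MB-231, 70.7% in cells of MDA-MB-231 and 68.2% in exosomes of MCF-10A, but 27.8% in the library labelled MCF-10A cell. The pair with the miR-19 seed made up 2.39%, 4.32% and 2.30% in the first 3 and 43.1% in the fourth, nearly all of it miR-19b at 40.4%. miR-92a took 29.8% in exosomes of MDA-MB-231, 12.7% in cells of MDA-MB-231 and 24.8% in exosomes of MCF-10A, against 28.5% in the library labelled MCF-10A cell. miR-18a took 3.94%, 12.3%, 4.67% and 0.616%. The exosome libraries of both lines thus resembled each other in makeup, and cells of MDA-MB-231 had more of miR-18a and less of miR-92a than either. These shares do not depend on how the libraries are scaled to each other.

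**Figure D2:**
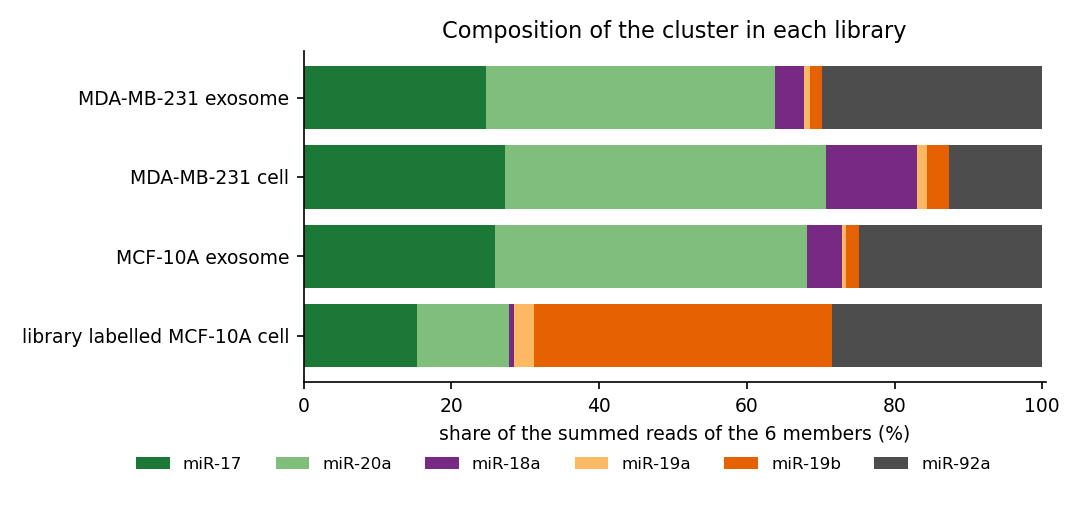
The x axis gives the share of the summed reads of the 6 members in percent, with 1 bar for each library and 1 colour for each member. miR-17 and miR-20a fill over 60% of the bar in 3 libraries, and miR-19b fills 40.4% in the library labelled MCF-10A cell.

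Between the exosome libraries the 6 members differed little. All 6 were lower in exosomes of MDA-MB-231 than in exosomes of MCF-10A, by log2 differences from -0.74 to -0.07 with a median of -0.57, and none was 2-fold apart. Over all 505 names with at least 10 reads per 10000000 in 1 of these libraries, the median difference was 0.59, 43.2% of names were at least 2-fold higher and 26.1% at least 2-fold lower in exosomes of MDA-MB-231. miR-18a was 1.67-fold lower (1.5 to 1.86), miR-20a 1.53-fold lower (1.48 to 1.58), miR-19b 1.5-fold lower (1.27 to 1.78) and miR-17 1.47-fold lower (1.41 to 1.54). miR-92a was 1.17-fold lower (1.13 to 1.22). For miR-19a the interval of the fold, 0.727 to 1.25, included 1. The summed cluster was 1.41-fold lower in exosomes of MDA-MB-231 (1.38 to 1.44). With the upper quartiles of the libraries set equal, which brings the median over all names to 0.14, the members were still lower. Of the 6, 4 were then at least 2-fold lower and none higher, beside 168 of 505 names lower and 182 higher. Exosomes of MDA-MB-231 also held 2.76% of reads in the markers of other tissues against 0.156% in exosomes of MCF-10A. With those reads left out of the library total, which shifts all names nearly alike, the cluster's log2 difference was -0.46 against -0.50. Cluster reads that came with the markers, if any, stay in, and their part was not tested.

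Between the cell libraries the members spread over 8.11 on the log2 scale. Of the 6, 3 were at least 2-fold higher in cells of MDA-MB-231 and 1 was at least 2-fold lower than in the library labelled MCF-10A cell, while 22.7% of the 665 names measured were higher and 60.8% lower, with a median of -2.83. miR-18a was 63.7-fold higher (57.6 to 70.6), miR-20a 11.1-fold higher (10.8 to 11.3) and miR-17 5.66-fold higher (5.53 to 5.79). These 3 kept that direction under both other scalings. miR-19b was 4.35-fold lower (4.2 to 4.50), a direction that turned with upper-quartile scaling, to a log2 difference of 0.32. With that scaling 5 members were at least 2-fold higher and none lower, beside 277 of 665 names higher and 307 lower. miR-19a and miR-92a were 1.66-fold (1.55 to 1.77) and 1.41-fold (1.38 to 1.44) higher, and both turned, to -0.30 and -0.53, when reads of the markers of other tissues were left out. The summed cluster was 3.18-fold higher (3.15 to 3.21) in cells of MDA-MB-231, but its log2 difference ran from 0.64 with those reads left out to 4.11 with upper-quartile scaling, against 1.67. Since 51.3% of the reads of the library labelled MCF-10A cell were from the markers of other tissues, their part in these differences cannot be told apart from a difference between the lines.

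Between exosomes and cells of MDA-MB-231, 5 of 6 members were at least 2-fold lower in exosomes and none was 2-fold higher, beside 29.9% of 499 names lower and 30.7% higher, with a median of -0.09. Of the 5, miR-17 at a log2 difference of -1.0 and miR-20a at -1.02 sat at the 2-fold size itself. miR-18a was 5.70-fold lower in exosomes (5.26 to 6.19), and miR-19a and miR-19b were both 3.29-fold lower (2.73 to 3.99 and 2.90 to 3.76). miR-92a alone was higher, by 1.29-fold (1.25 to 1.34). The summed cluster was 1.82-fold lower in exosomes (1.79 to 1.85). Each of these directions held under both other scalings, which shift all names nearly alike. Leaving out reads of the markers of other tissues, which were 2.76% in exosomes and 0.136% in cells, moved miR-17 and miR-20a to -0.96 and -0.98. Then 3 members were 2-fold lower, and miR-92a was at 0.41. The median over all names was -0.05 at that setting, where names past the 2-fold size were not counted.

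Between exosomes of MCF-10A and the library labelled MCF-10A cell, 4 of 6 members were at least 2-fold higher in exosomes and 1 at least 2-fold lower, beside 21.0% of 661 names higher and 65.1% lower, with a median of -3.27. miR-18a was 18.7-fold higher (16.5 to 21.1), miR-20a 8.34-fold (8.08 to 8.61), miR-17 4.17-fold (4.03 to 4.32) and miR-92a 2.14-fold (2.07 to 2.22). miR-19b was 9.53-fold lower (8.51 to 10.7) and miR-19a 1.89-fold lower (1.55 to 2.33), which turned to a log2 difference of 1.71 with upper-quartile scaling. With upper-quartile scaling 5 members were at least 2-fold higher and none lower, miR-19b being at -0.62, beside 260 of 661 names higher and 318 lower. With the markers of other tissues left out 3 were higher and 2 lower, and miR-92a was at 0.06, no longer 2-fold. The median over all names was then -4.3, and names past the 2-fold size were not counted at that setting. The summed cluster was 2.46-fold higher in exosomes (2.42 to 2.51). Its log2 difference of 1.30 fell to 0.27 with the markers of other tissues left out and rose to 3.93 with upper-quartile scaling. This comparison shares the library labelled MCF-10A cell with that between cells, and exosomes of MCF-10A with that between exosomes, so their values are not independent of each other.

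**Figure D3:**
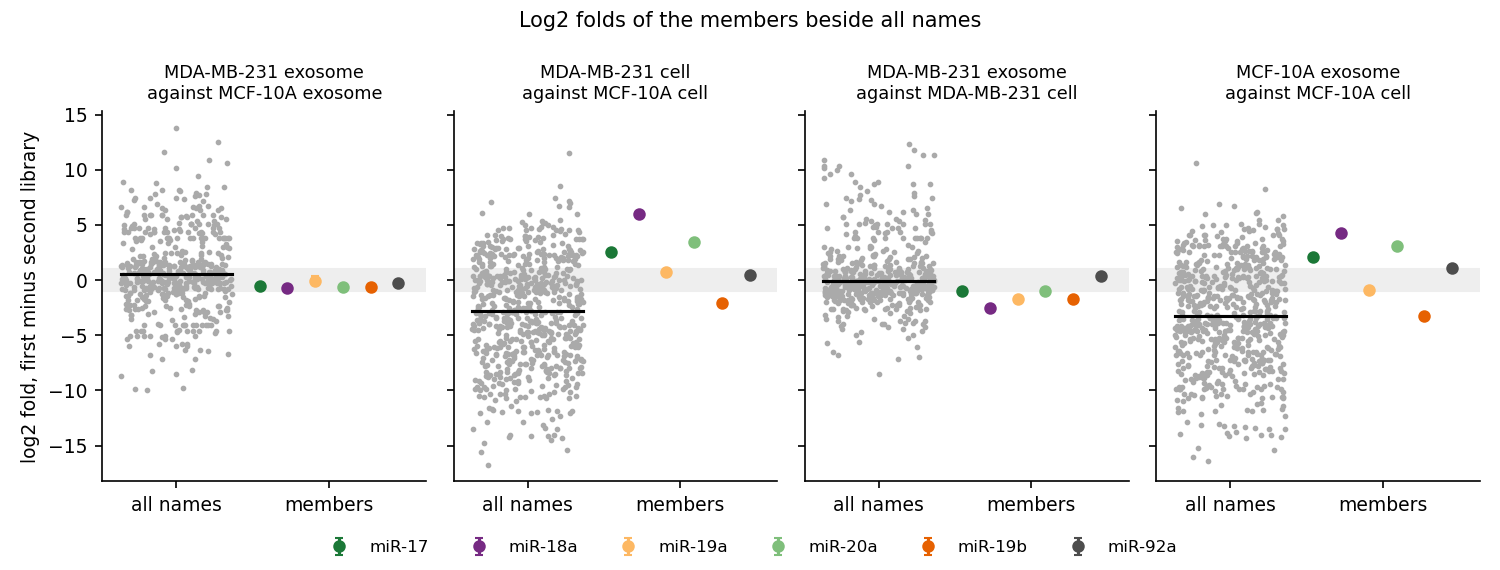
The y axis gives log2 folds, first minus second library named above each panel, with grey points for all names that passed the minimum level, a black line at their median and a grey band for differences under 2-fold. Coloured points are the 6 members with 95% counting intervals. The members sit together, from -0.74 to -0.07, between the exosome libraries and spread from -2.12 to 5.99 between the cell libraries.

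Since the members start from 1 transcript, ratios between them within a library were compared next, which removes the scaling of the libraries. The ratio of miR-17 to miR-20a was 0.633 in exosomes of MDA-MB-231 (0.608 to 0.659), 0.624 in cells of MDA-MB-231 (0.616 to 0.632) and 0.611 in exosomes of MCF-10A (0.589 to 0.634). These 3 intervals overlapped, whereas the library labelled MCF-10A cell had a ratio of 1.22 (1.19 to 1.26). The ratio of miR-19a to miR-19b was 0.483 in both MDA-MB-231 libraries (0.386 to 0.604 in exosomes and 0.457 to 0.510 in cells) and 0.337 in exosomes of MCF-10A (0.267 to 0.424), against 0.0669 in the library labelled MCF-10A cell (0.0637 to 0.0703). Each pair that shares a seed therefore kept its ratio, within counting error, between exosomes and cells of MDA-MB-231.

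Ratios to miR-92a did not stay level in that line. miR-17 to miR-92a was 0.829 in exosomes of MDA-MB-231 and 2.14 in cells, a 2.58-fold drop (2.47 to 2.71). miR-20a to miR-92a was 1.31 in exosomes and 3.43 in cells, a 2.62-fold drop (2.51 to 2.73), which was close to that of miR-17. The drop was 4.25-fold for miR-19a (3.52 to 5.12) and 4.26-fold for miR-19b (3.73 to 4.86). For miR-18a it was 7.37-fold (6.75 to 8.04), from a ratio of 0.973 to 0.132. Relative to miR-92a, the pair miR-17 and miR-20a was thus least depleted in exosomes, the pair miR-19a and miR-19b more so, and miR-18a most.

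Between the exosome libraries the same ratios moved less. miR-18a to miR-92a was 0.132 in exosomes of MDA-MB-231 and 0.188 in exosomes of MCF-10A, and miR-20a to miR-92a was 1.31 and 1.71. miR-17 to miR-92a was 0.829 and 1.04, and miR-19b to miR-92a was 0.0540 and 0.0693. Over all 15 pairs of members, none differed by 2-fold between the exosome libraries, the largest quotient was 1.59 for miR-18a to miR-19a (1.2 to 2.12), and the counting intervals of 9 pairs excluded a quotient of 1. Between exosomes and cells of MDA-MB-231, 7 of 15 pairs differed by at least 2-fold and the intervals of 13 excluded a quotient of 1. The pairs between the library labelled MCF-10A cell and cells of MDA-MB-231 differed by at least 2-fold in 13 of 15, up to 276-fold for miR-18a to miR-19b. Against exosomes of MCF-10A it was 14 of 15. These 15 pairs come from 6 members, so they are not independent, and pairs of all names were not counted. Quartiles of the log2 folds over all names were -1.17 and 2.96 between the exosome libraries and -6.53 and 0.60 between the cell libraries. They were -1.21 and 1.57 in MDA-MB-231 exosomes against cells, and -6.74 and 0.40 in MCF-10A exosomes against the library labelled MCF-10A cell. The median range of a pair's log2 ratio was 3.49 over the 4 libraries and 1.24 over the 3 without the library labelled MCF-10A cell.

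**Figure D4:**
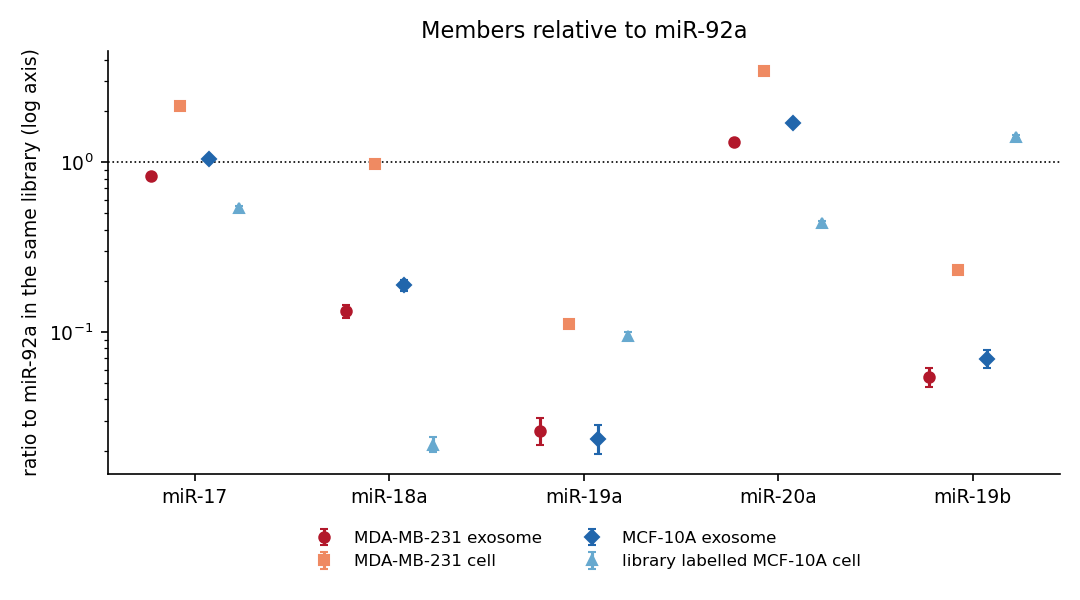
The y axis, on a log scale, gives the ratio of each of 5 members to miR-92a in the same library with 95% counting intervals, and the dotted line marks a ratio of 1. For all 5 members the exosome points of both lines lie close together and below the point of cells of MDA-MB-231, as for miR-18a at 0.132, 0.188 and 0.973.

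The star names allow a second look at the same hairpins, since both arms of a hairpin come from 1 precursor. For miR-19b and miR-92a this holds only in part, since their reads can also come from the hairpins on chromosome X. Every member outnumbered its star arm in every library where the star arm had reads, from 6.79-fold for miR-18a in the library labelled MCF-10A cell upward. miR-18a to miR-18a* was 9.21 in exosomes of MDA-MB-231 (7.11 to 12.0), 49.6 in cells of MDA-MB-231 (44.5 to 55.4) and 28.6 in exosomes of MCF-10A (19.8 to 43.0), against 6.79 in the library labelled MCF-10A cell (5.13 to 9.13). In MDA-MB-231 the arm ratio was thus 5.40-fold lower in exosomes than in cells (4.10 to 7.12). While miR-18a was lower in exosomes by a log2 difference of -2.51, miR-18a* differed by -0.08, from 66 and 334 reads.

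miR-17 to miR-17* was 28.5 in exosomes of MDA-MB-231 (23.9 to 34.0) and 30.5 in cells (28.8 to 32.3), so both arms of that hairpin had nearly the same log2 difference, -1.0 and -0.90. It was 115 in exosomes of MCF-10A (84.2 to 161), against 17.5 in the library labelled MCF-10A cell (16.1 to 19.2). The star arm miR-17* was higher in exosomes of MDA-MB-231 than in exosomes of MCF-10A, by a log2 difference of 1.45 from 134 and 40 reads, where miR-17 was lower, at -0.56, and the arm ratio was 4.04-fold lower (2.83 to 5.77). The hairpin of miR-18a showed the same, with miR-18a at -0.74, miR-18a* at 0.89 from 66 and 29 reads, and an arm ratio 3.11-fold lower (1.99 to 4.88). In both hairpins the arms therefore differed in opposite directions between the exosome libraries. This did not hold for miR-20a and miR-92a, where both arms were lower. miR-20a was at -0.61 and miR-20a* at -0.68 from 3 and 4 reads, miR-92a at -0.23 and miR-92a-1* at -1.67 from 11 and 29. miR-19b was lower, at -0.59, and miR-19b-1* higher on 4 reads against 0.

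In the exosome libraries the other arm ratios rest on 29 star reads or fewer. miR-92a to miR-92a-1* was 416 in exosomes of MDA-MB-231 (233 to 836), 219 in cells of MDA-MB-231 (175 to 276) and 152 in exosomes of MCF-10A (106 to 227), against 747 in the library labelled MCF-10A cell (502 to 1170), and reads of miR-92a can also come from chromosome X, whereas miR-92a-1* is cut from the chromosome 13 hairpin. miR-20a to miR-20a* was 407 in cells of MDA-MB-231 (345 to 481), against 32.1 in the library labelled MCF-10A cell (28.3 to 36.7). In exosomes miR-20a* had 3 reads for MDA-MB-231 and 4 for MCF-10A, which gave ratios of 2010 (686 to 9730) and 1880 (733 to 6900). miR-19b to miR-19b-1* was 62.0 (23.9 to 229) in exosomes of MDA-MB-231, 76.7 (58.3 to 103) in cells and 423 (328 to 554) in the library labelled MCF-10A cell. Reads of miR-19b can likewise come from chromosome X, whereas miR-19b-1* is cut from the chromosome 13 hairpin. miR-19a* had 6 reads in each cell library and 0 in each exosome library, where a count of 0 allows up to 3 reads and the ratio was at least 40.0 for MDA-MB-231 and at least 34.3 for MCF-10A. miR-19b-1* was at 0 in exosomes of MCF-10A, for a ratio of at least 102. Of the 6 star names 5 passed the minimum level in each comparison, and miR-19a* did not. Among the 5, 2 were at least 2-fold higher and 1 lower in exosomes of MDA-MB-231 than in those of MCF-10A, with miR-19b-1* higher on 4 reads against 0, and 3 were higher and none lower between the cell libraries. Between exosomes and cells of MDA-MB-231 none was higher and 2 were lower. Between exosomes of MCF-10A and the library labelled MCF-10A cell, 2 were higher and 2 lower. The shares over all names, higher and lower, were 43.2% and 26.1%, 22.7% and 60.8%, 30.7% and 29.9%, and 21.0% and 65.1% in that order, so that 2 of 5 higher between the exosome libraries is near the background.

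**Figure D5:**
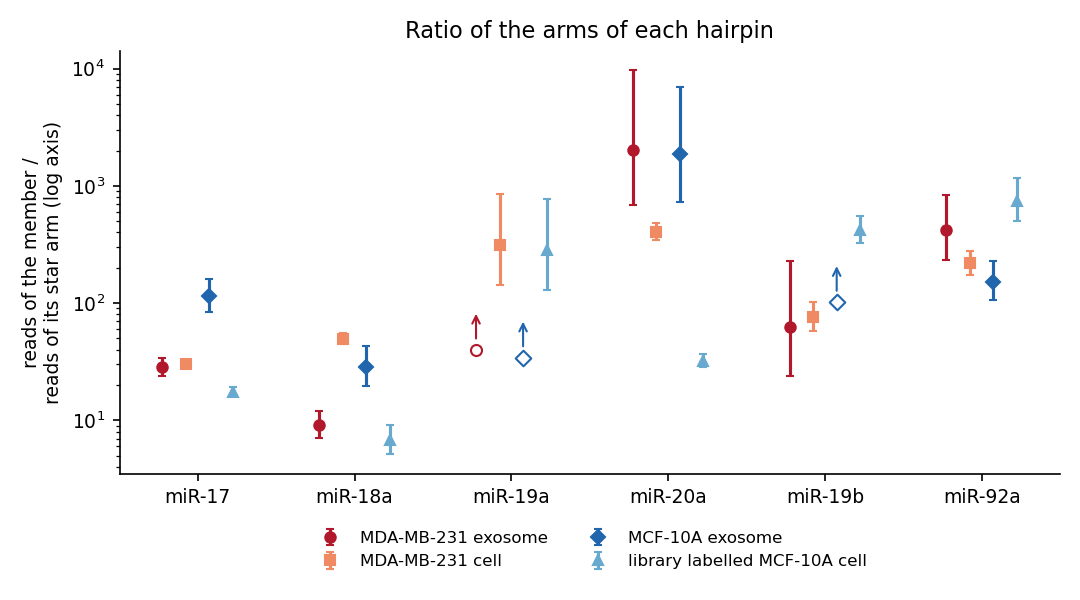
The y axis, on a log scale, gives reads of each member divided by reads of its star arm, with 95% counting intervals and 1 symbol for each library. Open symbols with arrows are lower bounds, where the star arm had 0 reads and was set at 3. For miR-18a, exosomes of MDA-MB-231 at 9.21 and cells at 49.6 lie apart, while for miR-17 they lie together, at 28.5 and 30.5.

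Near-identical miRNAs are made by a pair of paralogous clusters, miR-106a-363 on chromosome X and miR-106b-25 on chromosome 7. Those closest to members are shown with the seed in capitals.
hsa-miR-106a: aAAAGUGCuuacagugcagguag
hsa-miR-20b: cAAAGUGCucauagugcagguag
hsa-miR-18b: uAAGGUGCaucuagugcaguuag
hsa-miR-363: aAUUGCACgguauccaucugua
hsa-miR-93: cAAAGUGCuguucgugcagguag
hsa-miR-106b: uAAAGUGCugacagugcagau
hsa-miR-25: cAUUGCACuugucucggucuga
miR-106a differs from miR-17 by C1A alone, and miR-18b from miR-18a by A20U alone, miR-17 and miR-18a given first. How reads with a mismatch were shared among such names is not given in the sources used here, and whether some reads of 1 name were counted under another was not tested.

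The 4 names made only on chromosome X, miR-106a, miR-18b, miR-20b and miR-363, summed to 918 reads per 10000000 in exosomes of MDA-MB-231, 767 in cells of MDA-MB-231 and 1160 in exosomes of MCF-10A, against 6470 in the library labelled MCF-10A cell. The 6 members exceeded them 109-fold (92.5 to 130), 239-fold (220 to 260), 122-fold (103 to 144) and 8.87-fold (8.66 to 9.09). miR-106a supplied most of the sum in the first 3 libraries, with log2 levels of 9.76, 9.33 and 10.07, and 9.64 in the fourth. miR-363, whose hairpin neighbours the second copies of miR-19b and miR-92a, had log2 levels of 3.81, 5.13 and 0 in the first 3 libraries, against 12.14 in the library labelled MCF-10A cell, from 2, 25, 0 and 4936 reads. The 0 allows up to 23.9 reads per 10000000. miR-20b stood at 4.76, 5.90, 5.61 and 9.93, and miR-18b at 3.81, 5.01, 5.35 and 7.56. All 3 were highest in the library labelled MCF-10A cell, as miR-19b was and miR-92a was not, and the part of the chromosome X copies in the miR-19b and miR-92a reads was not tested. Between the cell libraries 3 of these 4 names were lower in MDA-MB-231 by 2-fold or more and none higher, near the 60.8% of all names that were lower. Between the exosome libraries 1 was higher and 1 lower, both on 5 reads or fewer, beside 43.2% and 26.1% of all names. Between exosomes and cells of MDA-MB-231, 3 were lower and none higher, beside 29.9% and 30.7% of all names. These 3 had 2 to 4 exosome reads and intervals that included no change. Between exosomes of MCF-10A and the library labelled MCF-10A cell, 3 were also lower and none higher, beside 65.1% and 21.0% of all names.

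The miR-106b-25 cluster, in an intron of the replication gene MCM7, summed to 100000, 116000, 116000 and 31000 reads per 10000000 over the libraries in that order. The ratio of the 6 members to these 3 was 0.999 in exosomes of MDA-MB-231 (0.977 to 1.02), 1.57 in cells of MDA-MB-231 (1.56 to 1.58) and 1.22 in exosomes of MCF-10A (1.19 to 1.24), against 1.85 in the library labelled MCF-10A cell (1.83 to 1.88). miR-93, which has the miR-17 seed, stood at 16.36, 16.28, 16.63 and 13.53, so that in MDA-MB-231 it differed by 0.08 between exosomes and cells where miR-17 and miR-20a differed by -1.0 and -1.02. miR-106b, also with that seed, stood at 12.94, 14.92, 13.49 and 13.48, a log2 difference of -1.98 in that line. miR-25, with the seed of miR-92a, stood at 13.05, 12.52, 11.78 and 12.92, and its difference of 0.53 between exosomes and cells of MDA-MB-231 lay beside the 0.37 of miR-92a. Other names of the miR-92 family lay elsewhere, with miR-32 at -2.31 from 68 and 1623 reads, miR-363 at -1.32 and miR-92b at -0.17. A shared seed therefore did not come with a shared exosome to cell difference in the miR-92 family or in the miR-17 group, where 6 names ran from -1.98 to 0.43. Of the 3 names of miR-106b-25, only miR-25 was 2-fold higher between the exosome libraries, and miR-93 and miR-106b were 2-fold higher between the cell libraries, beside 43.2% and 22.7% of all names.

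Of all reads with the miR-17 seed, over 6 names, miR-17 and miR-20a supplied 40.8% in exosomes of MDA-MB-231, 53.7% in cells of MDA-MB-231 and 45.8% in exosomes of MCF-10A, against 38.9% in the library labelled MCF-10A cell. miR-93 led this family in both exosome libraries, with 53.6% and 48.2%, and miR-20a led it in cells of MDA-MB-231, with 33.1%. miR-92a supplied 72.9%, 68.7%, 84.1% and 50.9% of the miR-92 family, whose other names are miR-92b, miR-25, miR-32, miR-363 and miR-367. miR-18a supplied 99.7%, 99.9%, 99.4% and 65.3% of the pair with miR-18b. The miR-19 family consists of the members miR-19a and miR-19b alone. In the miR-17 seed family 4 of 6 names were at least 2-fold higher in cells of MDA-MB-231 than in the library labelled MCF-10A cell and 1 lower, beside 22.7% and 60.8% of all names, and none was 2-fold apart between the exosome libraries. In the miR-92 family 5 of 6 names passed the minimum level, and 2 of them were at least 2-fold higher in exosomes of MDA-MB-231 than in exosomes of MCF-10A, miR-25 with 1300 and 441 reads and miR-363 with 2 and 0, which is near the 43.2% of all names.

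Names with a pattern like that of the cluster were ranked by the root mean square distance of their centred log2 levels from the centred log2 cluster sum, over 4 libraries and 251 names with at least 1000 reads per 10000000 in 1 of them. The closest were miR-744 at 0.31, miR-148b* at 0.31, miR-425 at 0.35, miR-29a* at 0.42, let-7f at 0.43 and miR-28-3p at 0.44, beside a median of 2.14 over all 251. The members' own distances were 0.33 for miR-17, 0.50 for miR-92a, 0.75 for miR-20a, 0.85 for miR-19a, 1.56 for miR-18a and 1.90 for miR-19b. The 6 closest names lay nearer to the cluster's sum than 5 of its own members, but they were picked from 251 by this same distance. All 6 members lay below the median of 2.14, but the sum is made of these same members. Their distances from it are therefore not evidence that they move together. Over the 3 libraries without the one labelled MCF-10A cell, miR-148b*, miR-744 and let-7f stayed among the closest 6, at 0.12, 0.19 and 0.20, and let-7g, miR-197 and miR-671-5p joined them. With so few libraries, which differ in depth and in their share of markers of other tissues, these distances describe the libraries and nothing more.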

How the data were processed

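The deposited values of each library are log2 levels with 2 decimals for 1100 names. No source states their log base or scale. Converted from base 2, less 1, they sum to about 10000000 in each library, so a value was taken to be log2 of (reads per 10000000 + 1). Low values are whole multiples of 1 step, so whole reads were recovered: 65.7%, 55.7%, 65.8% and 40.1% of nonzero names were resolved (a rounding interval under 0.5 reads wide), and 100% of those came out whole within that interval. Larger counts are known to 0.347%, the deposited rounding. The submitters' processing notes name Novoalign, edgeR and hg18, with no version or role. Exosome purification, read assignment and the miRBase release are not given in the sources used here. Per the labels' protocols, RNA was extracted with TRIzol reagents and small RNAs were size-selected.

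Log2 folds are differences of deposited values (pseudocount 1). The minimum level for a comparison was 10 reads per 10000000 in either library. Called sizes were 2-fold. That size was set with earlier results of these data known, in which the members lay within 4-fold between the exosome libraries. Intervals for folds were conditional binomial, for ratios Clopper-Pearson, for quotients of ratios log-normal on the reads, and for shares Wilson. There was no test across replicates. Named miRNAs were the members, the related lists (paralogous clusters, star arms, seed families) and the 6 most alike names. Marker lists were 5 epithelial names and 59 names of other tissues. Members and lists were chosen with earlier results of these data known. Alternatives were other scalings, denominators, sizes, minimums and pseudocounts, and the sum without miR-19b and miR-92a. Upper-quartile scaling and leaving out the markers of other tissues shift all names of a library nearly alike and remove no reads of the members. Scripts used Python 3.11.15, numpy 2.4.6, scipy 1.17.1 and pandas 2.3.3, and were tested on simulated data.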

Additional observations from a re-analysis of the deposited data

Results flagged for a closer look

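The log2 difference between exosomes and cells had opposite signs in MDA-MB-231 and MCF-10A for 3 members and for the cluster sum, and with 1 library per group the difference between the lines was not tested. For miR-17 it was -1.0 in MDA-MB-231 and 2.06 in MCF-10A, which lie -3.06 apart. For miR-18a it was -2.51 and 4.22, or -6.73 apart. miR-20a had -1.02 and 3.06, or -4.08 apart. The cluster sum had -0.87 and 1.30, or -2.17 apart. All of these rest on the library labelled MCF-10A cell, in which 51.3% of reads came from markers of other tissues. Its markers go against its label, and it may not hold RNA of MCF-10A cells alone or at all, so the MCF-10A values may not compare exosomes with cells of that line. What it holds was not tested. Over all names the median differences between exosomes and cells were -0.09 in MDA-MB-231 and -3.27 in MCF-10A. How many of all names had opposite signs was not counted, so the 3 members have no background beside them.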

How the results depend on the processing

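No result has a replicate behind it, so no replicate could be left out, and no paired analysis was possible because each group has 1 library. In the order exosomes between lines, cells between lines, exosomes against cells in MDA-MB-231 and the same in MCF-10A, the cluster's log2 fold was -0.50, 1.67, -0.87 and 1.30. It was -0.94, 4.11, -1.13 and 3.93 with upper-quartile scaling, -0.46, 0.64, -0.83 and 0.27 without reads of the markers of other tissues, and -0.59, 3.11, -1.17 and 2.54 without miR-19b and miR-92a. Its direction was the same in all of these. Upper-quartile scaling moved the median over all names from 0.59, -2.83, -0.09 and -3.27 to 0.14, -0.43, -0.35 and -0.68. It gave 4 members past the 2-fold size between exosomes, where none had been, and turned miR-19b between cells to 0.32. In MDA-MB-231 exosomes against cells, 5 members past the 2-fold size became 1 at 4-fold and 3 without the markers of other tissues. The names past the size became 178 at 4-fold and were not counted without the markers. The share of higher against lower names moved with upper-quartile scaling to 182 and 168 between exosomes, 277 and 307 between cells, 138 and 179 in MDA-MB-231, and 260 and 318 in MCF-10A. Recovered reads in place of deposited levels left 4 cluster folds, 20 ratios and 21 arm ratios within their intervals. Those reads were computed from the deposited levels, and the intervals from the reads, so this outcome was fixed in advance and checks only the rounding. Depth limits miR-19a and the star arms in exosomes.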
